A study of Mus musculus with 4 samples.

Results

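The cells described here are intraepithelial lymphocytes of the mouse colon that carried the TCRβ receptor, split by whether a messenger of Tcf7 was captured in the cell. They come from the library labelled Tcf7WT, which was sorted as live CD3+ TCRbeta+ CD8alpha+ cells. Cells with 0 UMIs of Gzma (granzyme A) and at least 1 UMI of Cd3e (a CD3 chain of the T cell receptor complex) form the gate. A UMI, a unique molecular identifier, stands for 1 captured messenger molecule. The gate held 6417 of the library's 7603 cells (84.4%), of 16787 cells in the 4 libraries of the series. Of these, 2062 had at least 1 Tcf7 UMI and are called Tcf7-detected, and 4355 had none and are called undetected. The Tcf7 count chose the groups, so the cells were selected on Tcf7, Gzma and Cd3e UMIs and the Tcf7 level in them (459.8 UMIs per 1000000 UMIs, written CPM, in detected cells and 0 in undetected cells) is no finding.

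The series holds 4 such libraries, Tcf7WT and Tcf7KO, each from the TCRβ and the TCRγδ sort (labelled TCRgamma+), all CD3+ CD8alpha+ and all from colon. The labels give the strain E8IcreTcf7fl/fl to all 4, and the genotype label alone separates WT from KO. E8I-Cre is driven by an enhancer of the Cd8a gene, so a floxed allele is deleted in the cells that use this enhancer, mature CD8α-expressing T cells among them. Neither age nor the number of mice is given. The comparison is between cells of 1 library, cells are not replicates of a condition, and no p-value is given. A bar or interval on a ratio or a level is an exact 95% interval for counting error only. It counts each UMI as independent, and it holds nothing of the spread between cells or between mice.

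Tcf7 encodes TCF-1, an HMG-box transcription factor that binds DNA on its own and pairs with β-catenin or with Groucho/TLE proteins. It is needed for T cell development in the thymus, and it marks naive, central memory and stem-like CD8 T cells, which can circulate, persist and renew. Effector and tissue-resident cytotoxic cells usually hold less of it. Intestinal intraepithelial lymphocytes are of 2 broad kinds: conventional cells with the CD8αβ coreceptor, and natural cells with CD8αα, which express signalling adaptors and receptors otherwise typical of natural killer (NK) cells. In the GRCm38 build, Tcf7 lies on chromosome 11 at 52252371 to 52283014, on the minus strand (GENCODE M21).

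Tcf7 counts per cell were low. Of the detected cells, 1550 (75.2%) had exactly 1 Tcf7 UMI, 400 had 2, and 112 had 3 or more, the highest count being 6 in 1 cell. The detected cells were also the deeper ones, with a median of 2566.5 UMIs and 1477 genes per cell, against 2364 UMIs and 1394 genes in undetected cells. When every cell was thinned to 1644 UMIs, leaving out 159 detected and 482 undetected cells that were shallower, 66.8% of the remaining detected cells still had a Tcf7 UMI. Detection thus depended on depth, and the undetected cells are not shown to lack Tcf7. The share of gate cells with a Tcf7 UMI was 32.1% (31.0 to 33.3%) as deposited and 22.02% (20.96 to 23.1%) after thinning.

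As background, cells with at least 20 UMIs of epithelial marker genes held a Tcf7 UMI in 2 of 52 cells over the 4 libraries (3.85%, at a median depth of 10021.5 UMIs). Whether these epithelial cells express Tcf7 was not tested, so their share is not a measure of false detection. After thinning the count was 0 of 44, which allows a share of up to 6.82%. The share of thinned gate cells lay above that pooled limit. In this library alone the thinned count was 0 of 10 cells, which allows a share of up to 30%, above the gate share. Cells of the same library with Cd3e and with a Gzma UMI lie outside the gate. Of these 732 cells, 13.8% had a Tcf7 UMI, or 8.23% (6.29 to 10.5%) after thinning, an interval that holds the pooled limit. Their Tcf7 level was 58.1 CPM, against 159 CPM over the gate. Within the gate, 16.03% (13.95 to 18.3%) of thinned cells with a UMI of Gzmb (granzyme B) had Tcf7, against 23.5% (22.3 to 24.8%) of those without. Before thinning these shares were 28.3% with and 33.0% without a Gzmb UMI, at median depths of 2959 UMIs with and 2333 UMIs without. Cells with a UMI of a naive or central memory marker (Ccr7, Lef1, S1pr1, Dapl1 and Igfbp4 among them) had Tcf7 in 25.5% (22.8 to 28.3%) after thinning, against 21.3% (20.1 to 22.5%) of cells without, and in 39.9% with and 30.6% without such a UMI before it. For cells with a UMI of Cd8b1, the β chain of the CD8αβ coreceptor, the thinned shares were 24.5% (21.2 to 28.1%), against 21.7% (20.6 to 22.9%) without, and these intervals overlap. The unthinned shares were 38.7% with and 31.4% without a Cd8b1 UMI.

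**Figure D1:**
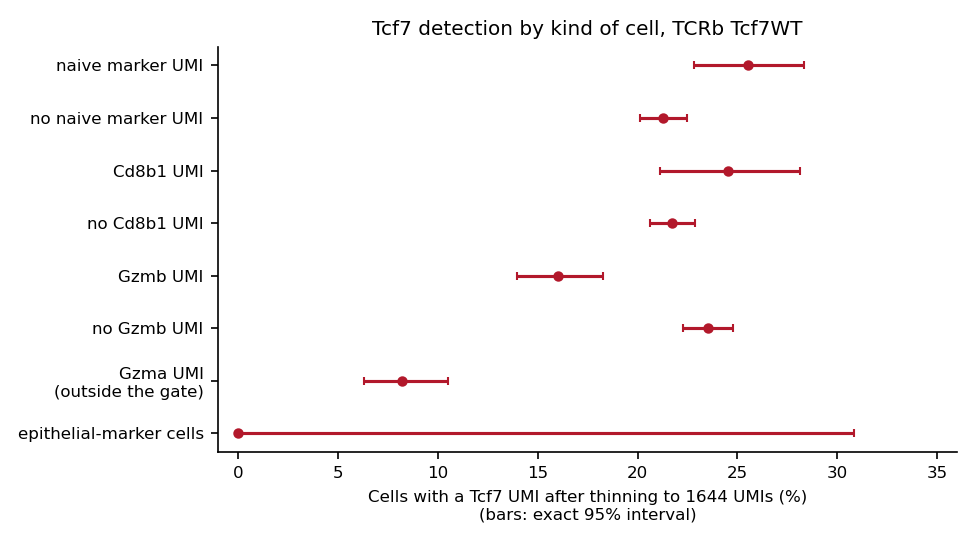
Percent of TCRb Tcf7WT cells with a Tcf7 UMI after thinning every cell to 1644 UMIs, for 6 kinds of gate cells, for Gzma-positive cells outside the gate and for epithelial-marker cells of this library (points, with exact 95% binomial intervals). Gzma-positive cells sit at 8.23% and Gzmb-positive gate cells at 16.03%, both under the other kinds of T cells, which lie between 21.3% and 25.5%.

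Both groups carried messengers of the sorted coreceptor. At least 1 Cd8a UMI was found in 87.4% of detected and 86.8% of undetected cells, and in 0 of 11 epithelial-marker cells of the library. Cd4 had 1 UMI in detected and 5 UMIs in undetected cells. Summed markers of other cell types were low or close in both groups, and their part in the results was not tested. The epithelial list summed to 185 CPM in detected and 208 CPM in undetected cells, the B cell list to 339 CPM in detected and 346 CPM in undetected cells, the myeloid list to 8.94 CPM in detected and 12.9 CPM in undetected cells, the CD4 T cell list to 27.7 CPM in detected and 29.6 CPM in undetected cells, and the list of γδ T cell genes to 208 CPM in detected and 201 CPM in undetected cells. Of the myeloid list, 4 of 15 genes are listed for the library, and 3 of these reached 20 UMIs. Among the B cell genes, Ighm made most of the sum, with UMIs in 1052 detected and 2111 undetected cells. Of the cell barcodes of this library, 10, 7 and 3 also occur in the TCRβ Tcf7KO, TCRγδ Tcf7WT and TCRγδ Tcf7KO libraries.

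Across the transcriptome the groups were close. Of 9506 genes with at least 100 UMIs over both groups, the log2 ratio of CPM (detected over undetected) had a median of 0.00 and ran from -0.26 at the 5th to 0.28 at the 95th percentile. At least 1.5-fold higher in detected cells were 60 genes (0.631%), and 48 genes (0.505%) were at least 1.5-fold lower. The interval of the ratio lay above 0 for 543 genes (5.71%) and under 0 for 435 genes (4.58%).

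Ccr7 had the highest ratio of the ranked genes, and 2 other receptors of circulating lymphocytes, Il7r and S1pr1, were among the 15 highest. Ccr7, the chemokine receptor for entry into lymph nodes, had 33.9 CPM (201 UMIs in 68 cells) in detected cells and 14.9 CPM (166 UMIs in 68 cells) in undetected cells, a log2 ratio of 1.19 (0.89 to 1.495). Il7r, the interleukin 7 receptor chain that sustains naive and memory cells, had 65.0 CPM (385 UMIs in 166 cells) in detected and 34.8 CPM (389 UMIs in 184 cells) in undetected cells, a log2 ratio of 0.90 (0.69 to 1.11). The detected group is the smaller one, yet both genes gave about as many UMIs or more in it. S1pr1, the sphingosine 1-phosphate receptor used to leave tissues and lymph nodes, stood at 49.6 CPM in detected and 33.0 CPM in undetected cells (0.59, 0.36 to 0.82). Cd8b1 stood at 148 CPM in detected cells, of which 254 had a UMI, and at 97.8 CPM in undetected cells, of which 403 had one (0.60, 0.47 to 0.73). Cd8a, the α chain that natural and conventional cells share, stood at 1253 CPM in detected and 1354 CPM in undetected cells (-0.11, -0.15 to -0.07). The β chain and the α chain thus lay on opposite sides of 0.

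The other genes of the top 15 have mixed roles. Cks1b, a cofactor of cyclin-dependent kinases, had a log2 ratio of 0.91 (0.59 to 1.24), and Stmn1, a microtubule regulator abundant in dividing cells, one of 0.79 (0.55 to 1.02). S100a4, a calcium-binding protein of memory and motile cells, had 80.8 CPM in detected and 53.7 CPM in undetected cells (0.59), and Sox4, an HMG-box factor of the same superfamily as TCF-1, 46.9 CPM in detected and 32.1 CPM in undetected cells (0.55). Gla (α-galactosidase A), Gramd3, Zmym3, Arl5c, Pola1 (a subunit of DNA polymerase α) and Gapdh-ps15 were also on the list, with log2 ratios of 0.54 to 0.77. In cells with a Cd8b1 UMI, Gla had a ratio of -0.20 and Cks1b of -0.032, and without cells with naive or central memory markers Gramd3 had one of -0.10. Gapdh-ps15 is a processed-pseudogene name, and reads of Gapdh could be split with it, so its value is uncertain.

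Granzyme B had the lowest ratio of the ranked genes. Gzmb, a serine protease of cytotoxic granules, had 239 CPM (1414 UMIs in 342 cells) in detected cells and 436 CPM (4868 UMIs in 865 cells) in undetected cells, a log2 ratio of -0.87 (-0.96 to -0.78). After thinning, 12.98% of detected and 17.02% of undetected cells had a Gzmb UMI. The next among the 15 lowest was Atg10, an autophagy enzyme, at -0.62 (-0.99 to -0.27), whose wide interval overlaps that of Gzmb. Ccl4, a chemokine made on activation, had 84.7 CPM in detected and 112 CPM in undetected cells (-0.40, -0.55 to -0.25). The rest, from Fndc3b at -0.50 to Mvk at -0.40, held among others Arrdc4 (an arrestin-domain protein), Pdcd1lg2 (the PD-1 ligand PD-L2), Dkk3 (a Dickkopf family protein), Adrb1 (the β1-adrenergic receptor) and Cpt1a (the mitochondrial importer of long-chain fatty acids). Apart from Gzmb and Ccl4, the low genes had few UMIs, and their intervals are wide. Cpt1a had a ratio of 0.017 without cells with 2 or more UMIs of other cell types' markers.

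**Figure D2:**
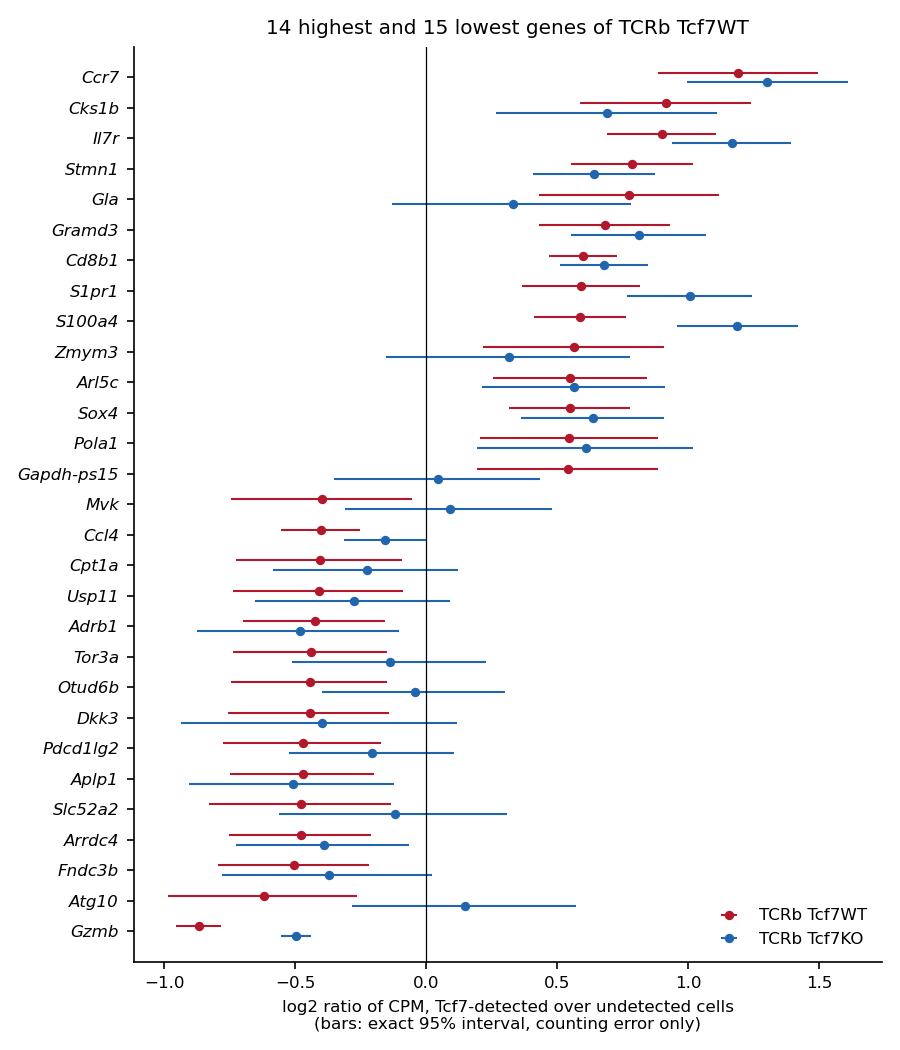
Log2 ratio of CPM in Tcf7-detected over undetected cells for 14 of the 15 highest and for the 15 lowest ranked genes of TCRb Tcf7WT (red), with the same split of the TCRb Tcf7KO library (blue) beside it; bars are exact 95% intervals for counting error. All 14 of the highest genes shown also lay above 0 in TCRb Tcf7KO, and of the 15 lowest, 13 also lay under 0. The share of all genes on each side of 0 was not computed for TCRb Tcf7KO.

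The sequence around the start of a high and of a low gene is shown because both differences were among the larger ones with enough counts: Il7r, higher in detected cells, and Gzmb, lower in them. Each run is the RefSeq promoter of GRCm38.p6, from 250 bases before to 50 bases after the start of the transcript, given 5′ to 3′ on the gene's minus strand. The RefSeq start used lies 300 bases inside the outer end of the gene in GENCODE M21 for Il7r, so the whole Il7r window lies within that gene model, and 74 bases outside it for Gzmb. Capitals mark the letters of a RUNX motif (TGTGGT) or an AP-1 motif (TGANTCA), searched on both strands; no TCF motif (CTTTGAT or CTTTGAA) was found in either window.
Il7r, chr15:9529827-9530126: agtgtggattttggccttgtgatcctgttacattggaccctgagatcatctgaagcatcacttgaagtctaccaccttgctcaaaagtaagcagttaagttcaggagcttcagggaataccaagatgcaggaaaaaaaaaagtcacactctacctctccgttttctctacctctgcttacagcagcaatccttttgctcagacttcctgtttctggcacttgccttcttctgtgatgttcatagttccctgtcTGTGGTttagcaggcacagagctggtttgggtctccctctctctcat
Gzmb, chr14:56262285-56262584: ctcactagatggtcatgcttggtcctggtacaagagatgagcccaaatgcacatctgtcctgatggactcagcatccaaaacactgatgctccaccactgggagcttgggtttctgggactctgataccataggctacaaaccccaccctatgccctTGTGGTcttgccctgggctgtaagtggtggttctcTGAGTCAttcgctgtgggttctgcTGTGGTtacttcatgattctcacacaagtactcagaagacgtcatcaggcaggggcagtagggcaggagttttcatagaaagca

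The Il7r window held 1 RUNX motif and the Gzmb window 2 RUNX motifs and 1 AP-1 motif. A match is a run of letters, not a bound site. Promoters were found for 7 of the 15 highest and 10 of the 15 lowest genes. The TCF motif was in none of either, the RUNX motif in 1 of 7 and 3 of 10. Of the promoters of all 27025 genes in the table, taking any listed start, 9.88% held the TCF motif, 18.9% the RUNX motif and 8.97% the AP-1 motif. Over the gene lists used below, the RUNX motif was in 10 of 17 promoters of the cytotoxic list and in 2 of 13 of the naive and central memory list. The TCF motif was in 1 of 17 (Gzmk) and 2 of 13 (Foxp1 and Cd27).

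All 16 genes of the naive and central memory list lay above 0, with a median log2 ratio of 0.42 against 0.00 over all genes, and 11 had an interval above 0. List members needed at least 20 UMIs over both groups, and of all 11820 genes at that minimum 51.1% lay above 0, 3.41% were at least 1.5-fold higher and 2.7% at least 1.5-fold lower, 5.36% had an interval above 0 and 4.07% one under 0. At least 1.5-fold higher were 6 of 16, with Igfbp4, Dapl1, Ccr7, Il7r and S1pr1 among them. Igfbp4, an insulin-like growth factor binding protein, had 17.04 CPM in detected and 6.36 CPM in undetected cells (1.42, 0.97 to 1.88). Dapl1, a gene of naive and resting memory CD8 cells, had 14.3 CPM in detected and 5.55 CPM in undetected cells (1.37, 0.88 to 1.87). These rest on few cells: Dapl1 was seen in 28 detected and 26 undetected cells, and Igfbp4 in 43 detected and 36 undetected cells. Lef1, the other TCF/LEF factor of mature T cells and the closest relative of TCF-1 in function, had 58.4 CPM (346 UMIs) in detected and 44.8 CPM (500 UMIs) in undetected cells, a log2 ratio of 0.38 (0.18 to 0.58). The transcription factors Klf2 and Satb1, which fall outside the naming rule and were picked after their values were seen, differed less. Klf2 had 762 CPM in detected and 641 CPM in undetected cells (0.25, 0.19 to 0.30), and Satb1 180 CPM in detected and 142 CPM in undetected cells (0.34, 0.23 to 0.45). Klf2 controls S1pr1, and Satb1 organises chromatin in developing and naive T cells.

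Among genes that guide cells to tissues, 4 of 20 were at least 1.5-fold higher (Ccr7, S1pr1 and Ccr2 among them, the last on 10 UMIs in each group) and none lower, with a median of 0.18 and 9 intervals above 0. Of all genes, 3.41% were at least 1.5-fold higher and 5.36% had an interval above 0. Cxcr4, the receptor for CXCL12, had 33.7 CPM in detected and 23.9 CPM in undetected cells (0.50, 0.23 to 0.77). Receptors tied to the gut or to residency differed by member. Gpr15, a receptor for homing to the colon, had 6.24 CPM in detected and 4.57 CPM in undetected cells, with an interval that held 0 (0.45, -0.20 to 1.09). Ccr9, the receptor for the gut chemokine CCL25, had 101 CPM in detected and 90.4 CPM in undetected cells (0.16). Cxcr6 had 141 CPM in detected and 124 CPM in undetected cells (0.19). Its ratio was -0.068 in the 910 detected and 1964 undetected cells left without 2 or more UMIs of other cell types' markers. Of 17 residency genes none was 1.5-fold higher or lower, and their median was -0.04. Of these genes, 3 had an interval above 0 and 4 had one under 0, against 5.36% and 4.07% of all genes. Itgae, the CD103 chain that binds epithelial E-cadherin, had 363 CPM in detected and 374 CPM in undetected cells (-0.05, -0.12 to 0.03). Rgs1, which dampens chemokine receptor signals, had 2431 CPM in detected and 2908 CPM in undetected cells (-0.26, -0.29 to -0.23).

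Coreceptor and costimulation genes differed by member: 6 of 15 intervals lay above 0 and 1 under 0, with a median of 0.05. Of all genes, 5.36% had an interval above 0 and 4.07% one under 0. Cd28, the main costimulatory receptor, had 112 CPM in detected and 84.5 CPM in undetected cells (0.41, 0.26 to 0.55). Cd5 and Cd6, scavenger-type receptors that tune T cell receptor signals in conventional T cells, had ratios of 0.48 (0.15 to 0.80) and 0.41 (0.13 to 0.68). Without cells with naive or central memory markers these were -0.29 for Cd5 and -0.031 for Cd6. Thy1, a pan-T cell surface protein of mice, was at 356 CPM in detected and 364 CPM in undetected cells (-0.03). All 5 measured MS4A membrane protein genes lay above 0, against 51.1% of all genes, with a median of 0.26. Ms4a4b, the one with the most UMIs, had 315 CPM in detected and 246 CPM in undetected cells (0.35, 0.27 to 0.44).

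Most cytotoxic genes other than Gzmb lay under 0 by a small amount. The list had a median of -0.09, 1 of 18 genes at least 1.5-fold lower (Gzmb), 1 at least 1.5-fold higher (Gzmm, on 22 UMIs in detected and 23 UMIs in undetected cells), and 7 intervals under 0. Of all genes, 2.7% were at least 1.5-fold lower, 3.41% at least 1.5-fold higher, and 4.07% had an interval under 0. Fasl, the ligand of the death receptor Fas, had 72.1 CPM in detected and 90.1 CPM in undetected cells (-0.32, -0.49 to -0.16). Serpina3g, a serine protease inhibitor, had 158 CPM in detected and 192 CPM in undetected cells (-0.28), and Ifng, the cytokine interferon γ, 54.2 CPM in detected and 63.9 CPM in undetected cells (-0.24, -0.43 to -0.05). Prf1, the pore-forming perforin, had only 50 UMIs in detected and 120 UMIs in undetected cells, and its interval held 0 (-0.35, -0.86 to 0.14). Among chemokines, Xcl1 had 1601 CPM in detected and 1819 CPM in undetected cells (-0.18, -0.22 to -0.15), and Ccl5 5828 CPM in detected and 6151 CPM in undetected cells (-0.08). Ccl3 had 67.8 CPM in detected and 66.7 CPM in undetected cells (0.02, -0.15 to 0.20), so its interval held 0 where that of Ccl4 did not.

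Of 25 innate and NK receptor genes measured, 5 lay above 0, against 51.1% of all genes, and 10 had an interval under 0, against 4.07%, with a median of -0.10. At least 1.5-fold lower were Klrc3 (-1.06, -1.93 to -0.28, on 17 UMIs in detected and 67 UMIs in undetected cells) and Klrb1b (-0.70, -1.58 to 0.11, on 17 UMIs in detected and 52 UMIs in undetected cells). Klre1, a lectin-like NK receptor, had 157 CPM in detected and 190 CPM in undetected cells (-0.28, -0.39 to -0.16). Klra9 and Klra1 of the Ly49 family had ratios of -0.32 and -0.25. Ly49 genes are closely related copies, and the counting could split reads among them. In cells with a Cd8b1 UMI, Klra9 had a ratio of 0.24, on 50 UMIs over both groups, and Klrc3 one of 1.17, on 5 UMIs. The signalling adaptors Fcer1g and Tyrobp, markers of natural CD8αα cells, also fall outside the naming rule and were picked after their values were seen. Fcer1g had 1660 CPM in detected and 1860 CPM in undetected cells (-0.16, -0.20 to -0.13), and Tyrobp 636 CPM in detected and 737 CPM in undetected cells (-0.21, -0.27 to -0.16).

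Cell cycle genes were higher in detected cells, on few cells, and those checked had smaller ratios with cells matched for depth. All 22 lay above 0, against 51.1% of all genes, and 7 were at least 1.5-fold higher, against 3.41%, with a median of 0.24. Mki67, a marker of dividing cells, had 26.5 CPM (157 UMIs in 46 cells) in detected and 11.4 CPM (127 UMIs in 50 cells) in undetected cells, a log2 ratio of 1.22 (0.87 to 1.57). Birc5 (survivin) had 18.2 CPM in detected and 6.81 CPM in undetected cells (1.42), and Ube2c, a ubiquitin-conjugating enzyme of mitosis, 9.62 CPM in detected and 3.58 CPM in undetected cells (1.42), and 1 cell held 45.6% of the Ube2c UMIs of detected cells. Cells with at least 2 UMIs of cycle markers were 1.55% of detected and 0.941% of undetected cells. After thinning they were 1.10% of detected and 0.491% of undetected cells, with the groups still split on unthinned Tcf7 counts. In the gate these 73 cells had a median depth of 5879 UMIs. A Tcf7 UMI was held by 43.8% of them before thinning. After it the share was 22.9% (13.7 to 34.4%), against 22.02% of all thinned gate cells. Their Tcf7 level was 113 CPM (83.5 to 149), against 159 CPM over the gate. When undetected cells were weighted to the depth distribution of detected cells, the ratio of Mki67 was 0.37, of Birc5 0.37, of Cks1b 0.20 and of Stmn1 -0.15. In cells with a Cd8b1 UMI, Mki67 had a ratio of -0.038, on 28 UMIs over both groups, and Birc5 one of -0.60, on 23 UMIs. The depth weighting left Ccr7 at 1.05, Il7r at 0.94, Lef1 at 0.40 and Gzmb at -1.08.

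Other lists gave medians near that of all genes: 0.02 for T cell receptor signalling, 0.07 for Wnt pathway genes and TCF cofactors, 0.01 for T cell transcription factors, 0.00 for cytokine receptors, -0.01 for inhibitory receptors, -0.02 for interferon response, -0.02 for immediate-early genes, -0.03 for GIMAP GTPases, -0.01 for oxidative phosphorylation, -0.01 for glycolysis, 0.00 for the BCL-2 family, 0.02 for S100, galectin and annexin genes, and -0.03 for the 2 measured type 17 genes. Some of these lists had more intervals off 0 than their medians show. Of 13 S100, galectin and annexin genes, 6 had an interval above 0 and 0 one under it. Of 20 immediate-early genes, 3 lay above and 7 under, and of 21 T cell receptor signalling genes, 5 above and 2 under. For T cell transcription factors it was 4 of 22 above, and for Wnt genes 3 of 23, with 0 under in both. Of all genes, 5.36% lay above and 4.07% under. The 6 measured inflammatory chemokine genes had a median of -0.13, with 3 intervals under 0. Of the Wnt genes, Tcf7l2, another TCF family member, had 28.5 CPM in detected and 20.1 CPM in undetected cells (0.50, 0.20 to 0.80), and Tle4, a Groucho-type corepressor, 167 CPM in detected and 146 CPM in undetected cells (0.20, 0.08 to 0.31). Axin2, a common target of β-catenin signalling, had 15.2 CPM in detected and 13.2 CPM in undetected cells (0.21), and its interval held 0 (-0.19 to 0.59). The stem-like CD8 list had a median of 0.06: Slamf6 was at 9.62 CPM in detected and 6.18 CPM in undetected cells (0.64, 0.11 to 1.17), while Xcl1 was lower and Cxcr5 (-0.29, -1.12 to 0.50) was too rare to place. Pdcd1, the PD-1 receptor, had 17.5 CPM in detected and 12.4 CPM in undetected cells (0.50, 0.11 to 0.87).

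**Figure D3:**
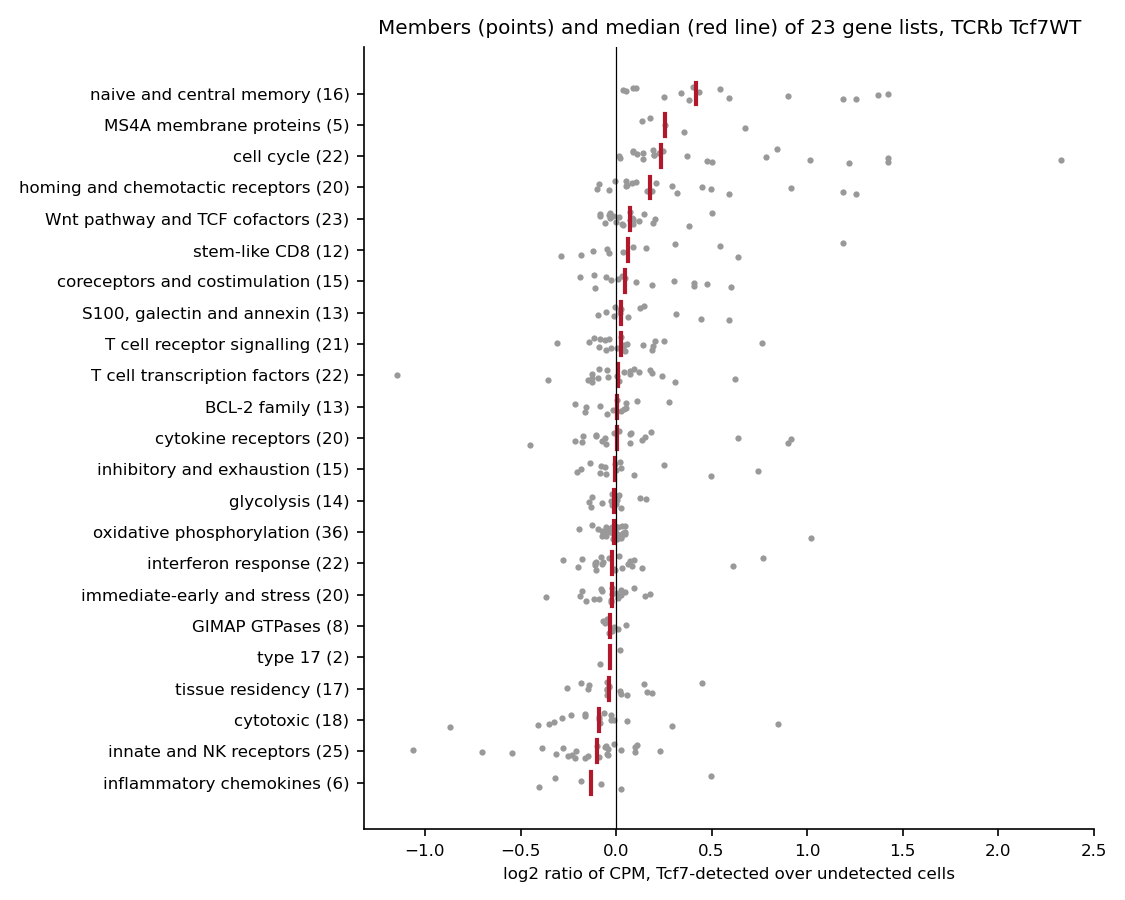
Log2 ratio of CPM in Tcf7-detected over undetected TCRb Tcf7WT cells for every member with at least 20 UMIs (grey points) of 23 gene lists, with the number of members in brackets and the list median as a red line. The naive and central memory list has the highest median, 0.42, with all 16 members above 0, while most medians lie within 0.10 of 0.

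Several of the differences were graded by the number of Tcf7 UMIs, shown for 9 genes picked after their values were seen. In cells with 0, 1, 2 and 3 or more Tcf7 UMIs, Ccr7 stood at 14.9, 25.7, 52.5 and 64.0 CPM. Il7r stood at 34.8, 58.9, 65.3 and 131 CPM in the same order, Lef1 at 44.8, 51.4, 66.1 and 110 CPM, and Klf2 at 641, 715, 853 and 981 CPM. All 4 were higher at each step, although neighbouring intervals overlap for several of them. Gzmb ran the other way, at 436, 261, 187 and 154 CPM, and so did Fcer1g, at 1860, 1729, 1530 and 1314 CPM. Cd8b1, Ccl4 and Tyrobp were not ordered at every step: Cd8b1 stood at 97.8, 145, 131 and 243 CPM, Ccl4 at 112, 87.4, 89.9 and 38.4 CPM, and Tyrobp at 737, 638, 646 and 576 CPM. Depth followed the same order, with medians of 2364, 2495, 2753 and 2905.5 UMIs per cell, and its part in the grading was not tested. With at least 2 Tcf7 UMIs against 0, the median of the naive and central memory list was 0.82.

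**Figure D4:**
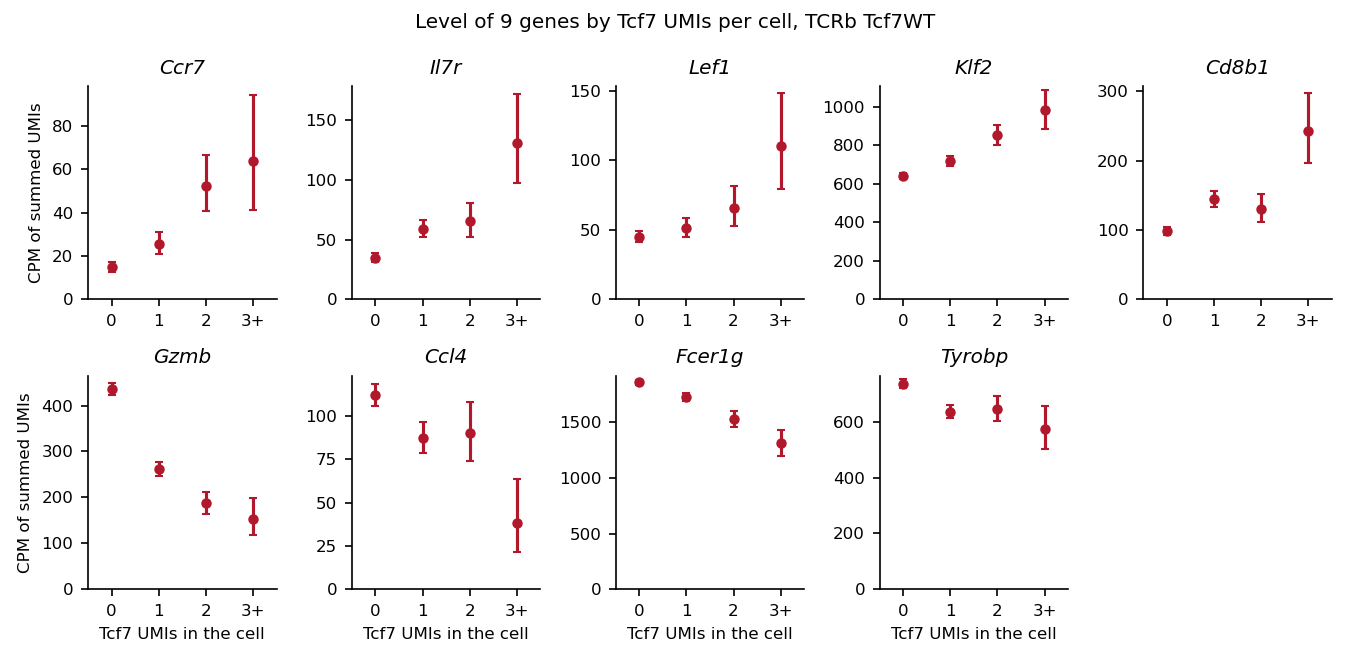
CPM of summed UMIs for 9 genes (linear axes from 0) in TCRb Tcf7WT gate cells with 0, 1, 2 and 3 or more Tcf7 UMIs (4355, 1550, 400 and 112 cells); bars are exact 95% Poisson intervals. Ccr7 is highest, at 64.0 CPM, and Gzmb lowest, at 154 CPM, in cells with 3 or more Tcf7 UMIs.

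Ccr7, Il7r and Lef1 had larger ratios in cells with a Cd8b1 UMI than in cells without one, and Gzmb was lower in detected cells of both kinds. In cells with a Cd8b1 UMI (254 detected, 403 undetected), Ccr7 had 244 CPM in detected and 120 CPM in undetected cells (1.02, 0.70 to 1.35), Il7r 375 CPM in detected and 197 CPM in undetected cells (0.93, 0.67 to 1.18), and Lef1 173 CPM in detected and 93.9 CPM in undetected cells (0.88, 0.50 to 1.26). In cells without a Cd8b1 UMI (1808 detected, 3952 undetected), Ccr7 had 3.10 CPM in detected and 2.89 CPM in undetected cells (0.10, -0.88 to 1.03), Il7r 19.5 CPM in detected and 16.4 CPM in undetected cells (0.26, -0.12 to 0.62), and Lef1 41.6 CPM in detected and 39.2 CPM in undetected cells (0.09, -0.16 to 0.33). These 3 intervals of the cells without Cd8b1 held 0, while those of S1pr1 and Klf2 lay above it. S1pr1 had ratios of 0.77 (0.39 to 1.14) with and 0.33 (0.04 to 0.62) without a Cd8b1 UMI, and Klf2 of 0.43 (0.34 to 0.53) with and 0.07 (0.01 to 0.14) without. Dapl1 had ratios of 1.07 (0.57 to 1.58) with and 0.96 (-1.47 to 3.38) without, the second on 8 UMIs over both groups. Igfbp4 had ratios of 1.43 with and -0.044 without a Cd8b1 UMI. The median of the naive and central memory list was 0.77 with and 0.12 without a Cd8b1 UMI. Gzmb was lower in both: 110 CPM in detected and 314 CPM in undetected cells with a Cd8b1 UMI (-1.52, -1.88 to -1.17), and 257 CPM in detected and 450 CPM in undetected cells without one (-0.80, -0.89 to -0.72). Tyrobp and Ccl4 had ratios of -0.995 and -1.03 with a Cd8b1 UMI and of -0.15 and -0.29 without. In these same cells Stmn1 had ratios of -0.57 (-1.32 to 0.13) with a Cd8b1 UMI and 0.98 (0.73 to 1.23) without. The difference between these strata was not tested, and cells without a Cd8b1 UMI may still express the gene.

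Without the 1074 cells that had a UMI of a naive or central memory marker, 1634 detected and 3709 undetected cells were left. Gzmb was then at 278 CPM in detected and 492 CPM in undetected cells (-0.82, -0.92 to -0.73), close to its ratio over the whole gate. Il7r was at 26.05 CPM in detected and 19.6 CPM in undetected cells (0.41, 0.06 to 0.75), Cd8b1 had a ratio of 0.13 and Klf2 one of -0.02 (-0.10 to 0.06). Naive and central memory markers were found in 20.8% of detected and 14.8% of undetected cells of the gate, or in 14.8% of detected and 10.8% of undetected cells after thinning.

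**Figure D5:**
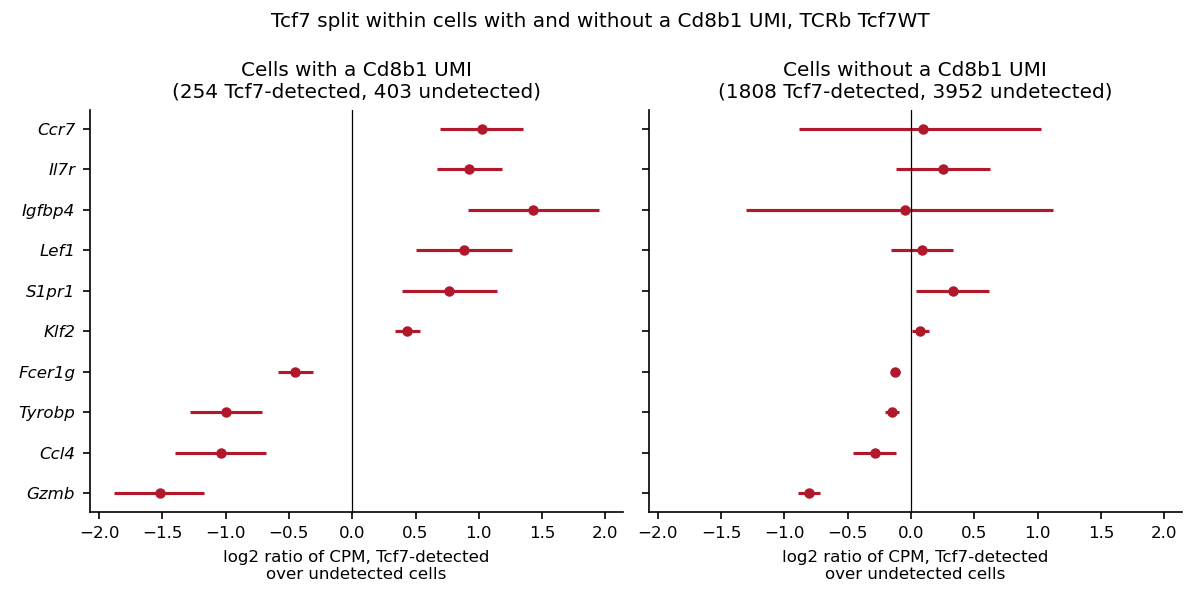
Log2 ratio of CPM in Tcf7-detected over undetected TCRb Tcf7WT cells for 10 genes, within cells with a Cd8b1 UMI (left, 254 detected and 403 undetected cells) and without one (right, 1808 detected and 3952 undetected cells); bars are exact 95% intervals for counting error. Gzmb lies under 0 in both panels, at -1.52 and -0.80, while Ccr7 lies at 1.02 on the left and 0.10 on the right.

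The same split was made in the other libraries, whose cells did not enter the ranking. The TCRβ Tcf7KO library still had a Tcf7 UMI in 1087 of 3742 gate cells (29.0%, or 18.0% after thinning), with 387 CPM in the detected cells. The part of Tcf7 that the floxed allele removes is not given, and the kit reads the 3′ end, so these UMIs do not tell whether a cell carried the deletion. Of the 15 highest genes, 14 lay above 0, 11 with an interval above 0, with a median of 0.64. Of the 15 lowest, 13 lay under 0, 5 with an interval under 0, with a median of -0.23. Ccr7 had 52.2 CPM in detected and 21.2 CPM in undetected cells (1.30, 0.996 to 1.61), Il7r 89.5 CPM in detected and 39.9 CPM in undetected cells (1.17), and S1pr1 77.0 CPM in detected and 38.4 CPM in undetected cells (1.01). S100a4 had 87.4 CPM in detected and 38.4 CPM in undetected cells (1.19), and Gzmb 875 CPM in detected and 1236 CPM in undetected cells (-0.50). Of 16 naive and central memory genes, all lay above 0 in that library too, 8 at least 1.5-fold (against 3.6% of all genes there with at least 20 UMIs, the minimum for list members, and 0.884% of those with at least 100), with a median of 0.61. Of 21 cell cycle genes measured there, 15 lay above 0, 8 with an interval above 0 (against 5.8% of all genes with at least 20 UMIs) and none with one under it. The shares of all genes above 0, under 0 and with an interval under 0 were not computed for TCRβ Tcf7KO, so those counts have no background. Cks1b had a ratio of 0.69 (0.27 to 1.11) and Stmn1 one of 0.64 (0.41 to 0.87). The intervals of Mki67 and Birc5 held 0, with a ratio of -0.01 (-0.40 to 0.37) for Mki67 and -0.15 (-0.66 to 0.33) for Birc5.

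The TCRγδ libraries had few gate cells: 188 detected and 499 undetected in Tcf7WT, and 30 detected and 147 undetected in Tcf7KO. In Tcf7KO the epithelial marker list summed to 202 CPM in detected and 5756 CPM in undetected cells, with 6 of its 7 measured members having an interval under 0, and the part of this in the ratios of that library was not tested. In Tcf7WT the same list summed to 301 CPM in detected and 298 CPM in undetected cells. Gzmb was lower in detected cells of both, with ratios of -1.35 in Tcf7WT and -1.67 in Tcf7KO. Il7r had ratios of 0.69 (-0.25 to 1.60) in Tcf7WT and 2.39 (0.17 to 4.72) in Tcf7KO, the last on 5 UMIs in detected and 4 UMIs in undetected cells. In Tcf7WT, 0.959% of measured genes were at least 1.5-fold higher and 1.64% at least 1.5-fold lower, and in Tcf7KO 6.48% were higher and 7.15% lower. Of the 15 highest genes, 9 in Tcf7WT and 4 in Tcf7KO had enough UMIs, and 7 of 9 in Tcf7WT and 4 of 4 in Tcf7KO lay above 0. Most intervals held 0 in Tcf7WT, where 2 lay above 0 and 1 under it, and in Tcf7KO 2 lay above it. Of the 15 lowest, 12 of 15 in Tcf7WT and 10 of 12 in Tcf7KO lay under 0. Only 3 intervals lay under 0 in Tcf7WT, and in Tcf7KO 1 lay under and 1 above it. The shares of all genes on each side of 0 and with an interval off 0 were not computed for the TCRγδ libraries, so these counts have no background.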

How the data were processed

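UMI counts per gene and cell were taken from the 4 deposited matrices, 1 per library, whole-number counts with gene symbols, made from a 10x 3′ kit, per the labels' protocols. Seurat 3.0.0 and the builds GRCm38 and mm10 are named, without their roles, per the submitters' processing notes; the aligner and the rule by which each library lists its genes are not given in the sources used here. The TCRb Tcf7WT library holds 20289960 UMIs, of which 5926414 lie in Tcf7-detected and 11166651 in undetected gate cells. No further filter on cells was applied.

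UMIs were summed per cell group and divided by the group's total (CPM). Log2 ratios have exact conditional 95% intervals, levels exact Poisson and shares exact Clopper-Pearson intervals; all cover counting error only. Genes needed 100 UMIs over both groups, list members 20. Thinning drew 1644 UMIs per cell, the 10th percentile of gate depth. A floor of 3 counts sets the limit for a count of 0. edgeR 4.0.16 (TMM) and DESeq2 1.42.0 gave scale factors only. Scrublet (scanpy 1.11.5) called 1 of 7603 cells a doublet and so did not work here; doublets were not otherwise removed. The ratio code was tested on simulated data. No test was made, since each group is 1 library.

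Named genes were the 15 highest and 15 lowest ratios with at least 20 CPM in the higher group and at most 10% of its UMIs in 1 cell, and up to 6 members per list with at least 50 UMIs and the largest absolute ratios. The ranking left out Tcf7, Gzma and Cd3e, unnamed gene models, antigen receptor segments, sex genes, and genes of haemoglobins, ribosomes and mitochondria. The rule, the 28 gene lists and the cell groups were chosen with earlier results of these data known. Alternatives were 17 planned and 1 added after seeing the data.

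Results for some genes are not reported here.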

Additional observations from a re-analysis of the deposited data

Results flagged for a closer look

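For 7 named genes, the interval of the ratio of Tcf7-detected over undetected cells lay on one side of 0 in TCRβ Tcf7WT and on the other side in another library. These differences between libraries were not tested, and the TCRγδ libraries hold few gate cells. In TCRγδ Tcf7KO, epithelial markers summed to 202 CPM in detected and 5756 CPM in undetected cells, and their part in the ratios of that library was not tested. Gla, at 0.77 in TCRβ Tcf7WT, had a log2 ratio of -1.37 in TCRγδ Tcf7WT. Ccl4, at -0.40 in TCRβ Tcf7WT, had one of 1.25 in TCRγδ Tcf7KO, on 30 detected cells. Xcl1, at -0.18 in TCRβ Tcf7WT, had ratios of 0.10 in TCRγδ Tcf7WT and 0.30 in TCRγδ Tcf7KO. Ifng, at -0.24 in TCRβ Tcf7WT, had a ratio of 0.45 in TCRβ Tcf7KO. Dusp2, a phosphatase induced on activation, had ratios of 0.15 in TCRβ Tcf7WT and -0.82 in TCRγδ Tcf7WT. S100a6 had ratios of 0.45 in TCRβ Tcf7WT and -3.04 in TCRγδ Tcf7KO, and Ahnak of 0.15 in TCRβ Tcf7WT and -0.93 in TCRγδ Tcf7KO.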

How the results depend on the processing

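The counts of genes past 1.5-fold depended most on the count minimum and on the Tcf7 threshold. In place of 60 genes higher in detected cells, 142 were found with 2 or more Tcf7 UMIs against 0, 10 with a minimum of 300 UMIs, 1196 with no minimum, 36 without cells with naive and central memory markers, and 35 without naive or cycling cells (the last added after seeing the data). In place of 48 lower genes, 203 were found with 2 or more Tcf7 UMIs, 97 with cells thinned before gate and split, 4 with a minimum of 300 UMIs, 859 with no minimum, 110 with no limit on Gzma, and 31 without cells with naive and central memory markers. The median of the naive and central memory list (0.42) was 0.82 with 2 or more Tcf7 UMIs, 0.77 in cells with and 0.12 in cells without a Cd8b1 UMI, 0.18 without cells with naive and central memory markers and 0.14 without naive or cycling cells. The median of the innate and NK receptor list (-0.10) was -0.36 in cells with a Cd8b1 UMI. Under TMM scaling and DESeq2 size factors no named gene was counted as reversed in sign. Of 2550 values of named genes under the alternatives, 34 were counted as reversed. In cells with a Cd8b1 UMI these were Ahnak (-0.20), Birc5 (-0.60), Ccnb2 (-1.87), Cks1b (-0.032), Gla (-0.20), Gpr55 (-0.34), Klra9 (0.24), Klrc3 (1.17), Mki67 (-0.038), Slc52a2 (0.092), Stmn1 (-0.57), Tnfsf8 (-0.29) and Ube2c (-0.22). Without a Cd8b1 UMI they were Icos (-0.052) and Igfbp4 (-0.044). With cells thinned before gate and split they were Ahnak (-0.044), Anxa6 (-0.090), Gapdh (-0.021), Lgals1 (-0.028), Ly6a (-0.76) and Nr4a1 (-0.0056). Without cells with naive and central memory markers they were Cd5 (-0.29), Cd6 (-0.031), Gramd3 (-0.10), Icos (-0.018), Ly6a (-0.74) and S100a6 (-0.030), and without naive or cycling cells Cd5 (-0.24), Gramd3 (-0.091) and Ly6a (-0.72). Without cells with 2 or more UMIs of other cell types' markers, which left 910 of 2062 detected and 1964 of 4355 undetected cells, they were Atf3 (0.18), Cpt1a (0.017) and Cxcr6 (-0.068). With undetected cells weighted by depth it was Stmn1 (-0.15). The count of 34 does not hold every change of sign. Trdc, which is not in it, had 15.1 CPM in cells with 0 Tcf7 UMIs. With 1, 2 and 3 or more it had 18.5, 15.9 and 20.5 CPM. In cells with a Cd8b1 UMI its ratio was -0.67 (-2.53 to 0.94). The cause of these changes of sign was not tested. No paired analysis was possible because the groups are cells of 1 library, with no replicate numbers and no test. Depth limits what can be said of genes with few UMIs, such as Prf1, Cxcr5 and Zeb2, and of the TCRγδ Tcf7KO library.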
